A study of Mus musculus with 19 samples.

Results

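The genes of glucose uptake and glycolysis described here encode the insulin-responsive glucose transporter GLUT4 (Slc2a4), hexokinases (Hk1, Hk2), phosphofructokinase subunits (Pfkm, Pfkl), the enzymes that make and break its fructose bisphosphate activator (Pfkfb1, Pfkfb2), aldolase A (Aldoa) and the lactate dehydrogenase subunits (Ldha, Ldhb). Each was taken by its symbol, from a probe set that the platform annotation assigns to that symbol alone, and from the brightest such probe set where a gene had several. Of the 10 genes, 8 had such a probe set, among 22180 genes measured. Aldoa shares its probe set with Aldoart1, and no probe set used here was named Pfkfb1. Hearts were taken at ZT12 (lights off, by the usual zeitgeber convention) from Reverb alpha KO mice whose strain is not labelled (KO ZT12, n = 5), and from wildtype C57Bl6J mice at ZT12 (WT ZT12, n = 7) or ZT0 (lights on; WT ZT0, n = 7). All were isolated and perfused on a Langendorff apparatus, which feeds the coronary vessels through the aorta: flow ran for 20 min, stopped for 20 min and returned for 20 min, and the heart was then frozen. Values therefore describe reperfused hearts only, hearts without ischemia and knockouts at ZT0 are not analysed here, and the labels give neither sex nor age nor how the allele was made. The values were log2 intensities of Affymetrix arrays summarised with RMA, 1 array per heart.

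Glucose enters the heart muscle cell through GLUT4, which insulin, contraction and lack of oxygen bring to the cell surface, and hexokinase traps it as glucose phosphate. Phosphofructokinase is the committed step of glycolysis, and the PFKFB enzymes set the level of its activator, PFKFB2 being the form known from heart. Lactate dehydrogenase turns pyruvate into lactate and back, and glycolysis is the source of ATP that remains when flow stops. REV-ERB alpha, the product of Nr1d1, is a nuclear receptor that represses genes of the circadian clock and of metabolism.

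The arrays differed little as a whole, with medians of 3.25 to 3.32 and correlations between hearts of 0.972 to 0.985. Cardiomyocyte markers (8 of 8 measured) averaged 11.19 to 11.28 in KO ZT12 hearts, 11.15 to 11.21 in WT ZT12 hearts and 11.16 to 11.24 in WT ZT0 hearts. Atrial muscle markers (10 of 10 measured) differed between hearts, their mean being 5.68 to 8.68 in KO ZT12 hearts, 5.997 to 8.68 in WT ZT12 hearts and 7.71 to 8.82 in WT ZT0 hearts. It was below 7 in 4 hearts, which were KO ZT12 replicates 2, 4 and 5 and WT ZT12 replicate 5. Whole tissue cannot tell fewer cells of a type from less RNA per cell. The probe set of Nr1d1, the targeted gene, read 6.35, 6.40, 6.30, 6.36 and 6.51 in KO ZT12 hearts, against 6.46 to 7.28 (median 6.64) in WT ZT12 hearts and 5.76 to 6.67 in WT ZT0 hearts. It rose at ZT12 in the wild type (log2 difference 0.59, SE 0.13; adjusted p = 0.0289) but did not pass between the genotypes (log2 difference -0.35, SE 0.15; adjusted p = 0.374), and which exons its probes read is not known here, so it does not check the knockout label.

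Promoters are shown for Pfkfb2, the member that passed a test, and for Pfkl, the member nearest to passing between the genotypes. RefSeq promoter windows (GRCm38.p6, 250 bases before to 50 bases after a start site, read on the gene's strand) were found for 9 of the 10 genes, all but Slc2a4, with 21 windows in all. In the sequences, capitals mark the E-box CACGTG, the motif of the clock activators.
Pfkfb2, chr1:130715772-130716071, minus strand: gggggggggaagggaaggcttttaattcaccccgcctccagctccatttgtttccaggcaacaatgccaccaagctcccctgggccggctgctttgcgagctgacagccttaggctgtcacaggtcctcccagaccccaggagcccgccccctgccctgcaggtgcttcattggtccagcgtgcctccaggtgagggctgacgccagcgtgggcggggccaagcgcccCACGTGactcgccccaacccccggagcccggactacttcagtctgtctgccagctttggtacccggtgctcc
Pfkl, chr10:78009758-78010057, minus strand: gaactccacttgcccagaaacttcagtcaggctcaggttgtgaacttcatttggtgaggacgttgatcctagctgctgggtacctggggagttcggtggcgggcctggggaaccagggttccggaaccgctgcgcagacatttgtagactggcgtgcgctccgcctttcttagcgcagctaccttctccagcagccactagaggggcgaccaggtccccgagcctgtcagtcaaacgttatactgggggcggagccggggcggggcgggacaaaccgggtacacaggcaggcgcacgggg
The Pfkfb2 window, which belongs to 1 of 3 listed start sites, holds an E-box whose first base lies at -22 from the start. The Pfkl window holds none of the motifs searched. E-boxes were also found in a window of Ldha, at -145 and -48, and in a window of Pfkm, at -136, and these are shown with their flanks.
Ldha, chr7:46845647-46845676, plus strand: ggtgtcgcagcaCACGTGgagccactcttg
Ldha, chr7:46845744-46845773, plus strand: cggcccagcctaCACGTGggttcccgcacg
Pfkm, chr15:98092441-98092470, plus strand: aattaagtatgcCACGTGaagtaagtaatt
On both strands, CACGTG lay in 3 of the 21 windows and in 7.15% of 32851 promoter windows of all genes. The core motif of many nuclear receptors, AGGTCA, lay in 5 of the 21, belonging to Aldoa, Ldhb, Pfkfb1 and Pfkm, and in 16.3% of all. Windows of a gene can overlap, and the Aldoa match is a single site that lies in 2 of them. The hypoxia core ACGTG, which every E-box of this form contains, lay in 9 of the 21 and in 19.6% of all.

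Knockout and wild-type hearts were first compared at ZT12. The knockout strain is not labelled, so the loss of REV-ERB alpha cannot be told apart from a difference of strain. None of the 8 members passed (0 higher, 0 lower, limma with Benjamini-Hochberg adjustment over all genes), where 0.730% of all genes did, 0.442% higher and 0.289% lower. At an unadjusted p under 0.05 there were 3, Pfkl, Hk1 and Pfkm, all higher in the knockout, and 10.6% of all genes were past that bound. The median log2 difference of the 8 was -0.018, against -0.00305 for all genes.

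Pfkl and Pfkm differed between the genotypes without overlap, and neither passed. Pfkl, the liver-type subunit, read 7.03, 7.19, 7.12, 6.98 and 6.90 in KO ZT12 hearts, against a lowest of 6.51, a median of 6.76 and a highest of 6.89 in WT ZT12 hearts. All 5 knockout hearts lay above all 7 wild-type hearts, by a narrow margin at the nearest pair, and the log2 difference was 0.34 (SE 0.081; 1.26-fold; adjusted p = 0.0517). The adjusted p of Pfkl depended on the setting. It passed without WT ZT12 replicate 5 (0.0403), with dim probe sets left out (0.0250) and with a variance trend (0.0172). Without other single hearts it rose to as much as 0.149. It was 0.0814 with quantile normalization repeated, 0.113 with the replicate block and 0.115 with the atrial marker mean as a covariate. With only the compared groups fitted it was 0.142, and without the 4 hearts low in atrial markers 0.214. Pfkm, the muscle-type subunit, read 9.45, 9.38, 9.37, 9.39 and 9.55 in KO ZT12 hearts, against 9.18, 9.25 and 9.37 (lowest, median, highest) in WT ZT12 hearts. Again no knockout heart fell within the wild-type range, though the nearest pair is equal at this rounding, with a log2 difference of 0.16 (SE 0.059; adjusted p = 0.268). Pfkp, the platelet-type subunit and no member, averaged 7.20 ± 0.16 in KO ZT12 hearts (SD, n = 5) and 7.18 ± 0.15 in WT ZT12 hearts (SD, n = 7), a log2 difference of 0.025 (adjusted p = 0.961). Of the 8 members, 2 had groups without overlap, both higher, and so did 1.40% of all genes, 0.969% higher and 0.428% lower.

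Hk1, the hexokinase that most tissues carry, read 6.38, 6.59, 6.35, 6.44 and 6.27 in KO ZT12 hearts, against 6.01, 6.20 and 6.36 (lowest, median, highest) in WT ZT12 hearts. The groups overlapped (log2 difference 0.20, SE 0.068; adjusted p = 0.220). Hk2, the insulin-responsive hexokinase of muscle, read 8.17, 8.50, 8.34, 8.31 and 7.84 in KO ZT12 hearts, against 8.20, 8.36 and 8.38 (lowest, median, highest) in WT ZT12 hearts. The knockout hearts lay on both sides of the narrow wild-type range, KO ZT12 replicate 5 being the lowest heart of all 19 (log2 difference -0.088, 95% interval -0.27 to 0.095). Without that heart the difference was 0.010.

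For the other members the intervals of the difference between genotypes included 0. Slc2a4, the GLUT4 gene, read 8.57, 8.80, 8.50, 8.75 and 8.62 in KO ZT12 hearts, against 8.59, 8.67 and 8.74 (lowest, median, highest) in WT ZT12 hearts and 8.45, 8.64 and 8.82 in WT ZT0 hearts. The 3 groups overlapped, and the difference between genotypes was -0.022 on the log2 scale (95% interval -0.17 to 0.13).

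Lactate dehydrogenase was read for both of its main subunits. Ldha, the subunit known from skeletal muscle, read 5.33, 5.30, 5.29, 5.12 and 5.13 in KO ZT12 hearts, against 5.17, 5.23 and 5.38 (lowest, median, highest) in WT ZT12 hearts. Knockout replicates 4 and 5 lay below the wild-type range and the others inside it (log2 difference -0.013, 95% interval -0.15 to 0.13). Ldhb, the subunit known from heart, read 9.46, 9.70, 9.59, 9.53 and 9.28 in KO ZT12 hearts, against 9.44, 9.58 and 9.66 in WT ZT12 hearts. The knockout hearts spread to both sides of the wild-type range (log2 difference -0.048, 95% interval -0.19 to 0.093). Pfkfb2 differed by -0.18 between the genotypes (95% interval -0.39 to 0.029), with all 5 knockout hearts inside the wild-type range.

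**Figure D1:**
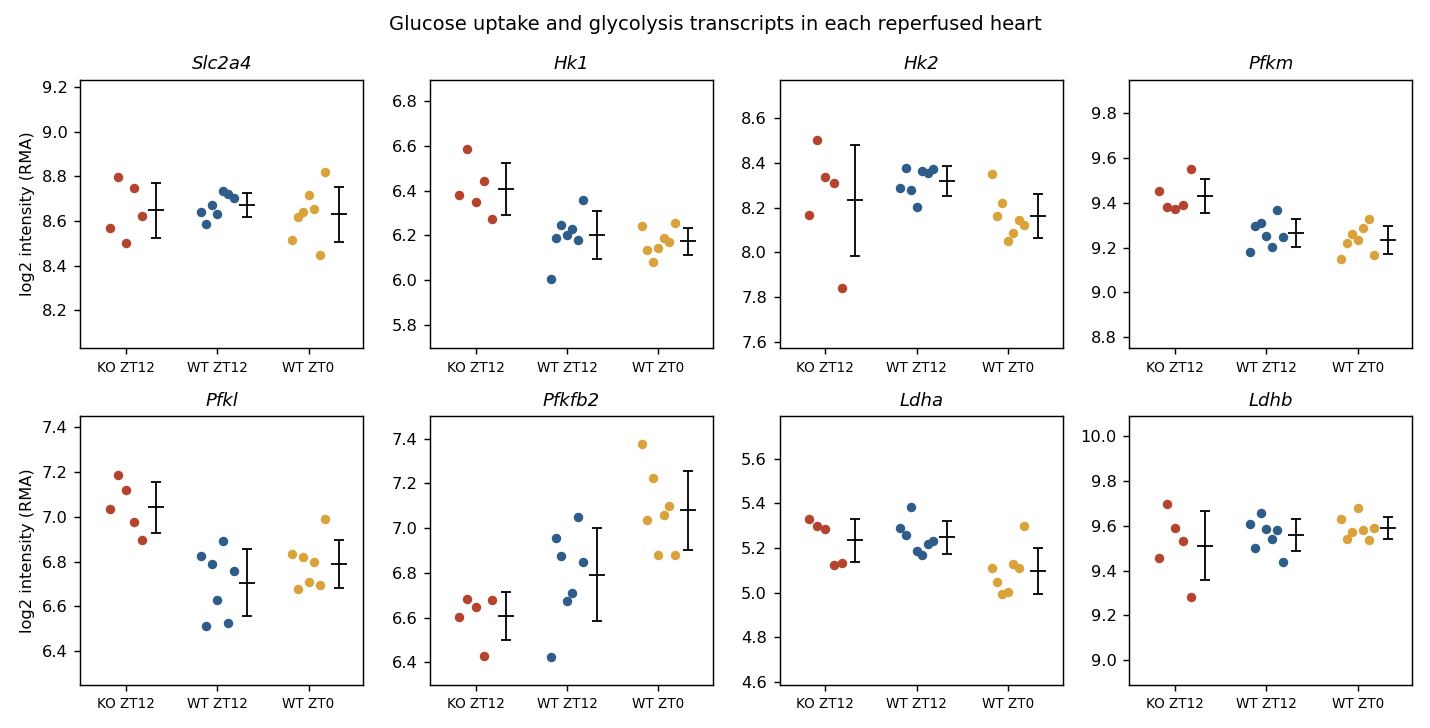
Log2 intensity of the 8 measured genes in each heart (points), with the group mean and SD (bar), for KO ZT12 (n = 5), WT ZT12 (n = 7) and WT ZT0 (n = 7). Pfkl and Pfkm were higher in all 5 KO ZT12 hearts than in any WT ZT12 heart, and Pfkfb2 was lower in all 5 than in any WT ZT0 heart.

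Knockout hearts at ZT12 were next set against wild-type hearts at ZT0, a comparison in which time and genotype both differ and which shares its arrays with the others. Here 1 of the 8 members passed, Pfkfb2, which fell (0 higher, 1 lower), where 1.34% of all genes passed, 0.965% higher and 0.379% lower. At an unadjusted p under 0.05 there were 4 members, and 12.6% of all genes. Pfkfb2 read 6.60, 6.68, 6.65, 6.43 and 6.68 in KO ZT12 hearts, against 6.88, 7.06 and 7.38 (lowest, median, highest) in WT ZT0 hearts. No knockout heart reached the lowest ZT0 heart, and the log2 difference was -0.47 (SE 0.10; 1.39-fold lower; adjusted p = 0.0197). The call was lost without KO ZT12 replicate 4 (adjusted p = 0.0760), with the atrial marker mean as a covariate (0.0895, at a log2 difference of -0.48) and without the 4 hearts low in atrial markers (0.291, at -0.45 with 2 knockout hearts left).

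Hk1 and Pfkm were higher in all 5 KO ZT12 hearts than in any WT ZT0 heart, but neither passed. With Pfkfb2 they made 3 members without overlap, 2 higher and 1 lower, against 1.72% of all genes, 1.19% higher and 0.532% lower. Hk1 averaged 6.41 ± 0.12 in KO ZT12 hearts (SD, n = 5) and 6.17 ± 0.061 in WT ZT0 hearts (SD, n = 7), a log2 difference of 0.23 (SE 0.068; adjusted p = 0.103). Pfkm averaged 9.43 ± 0.076 and 9.23 ± 0.063 in the same groups (log2 difference 0.20, SE 0.059; adjusted p = 0.119). Pfkl, with 1 ZT0 heart at 6.99 inside the knockout range, differed by 0.25 (SE 0.081; adjusted p = 0.146).

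**Figure D2:**
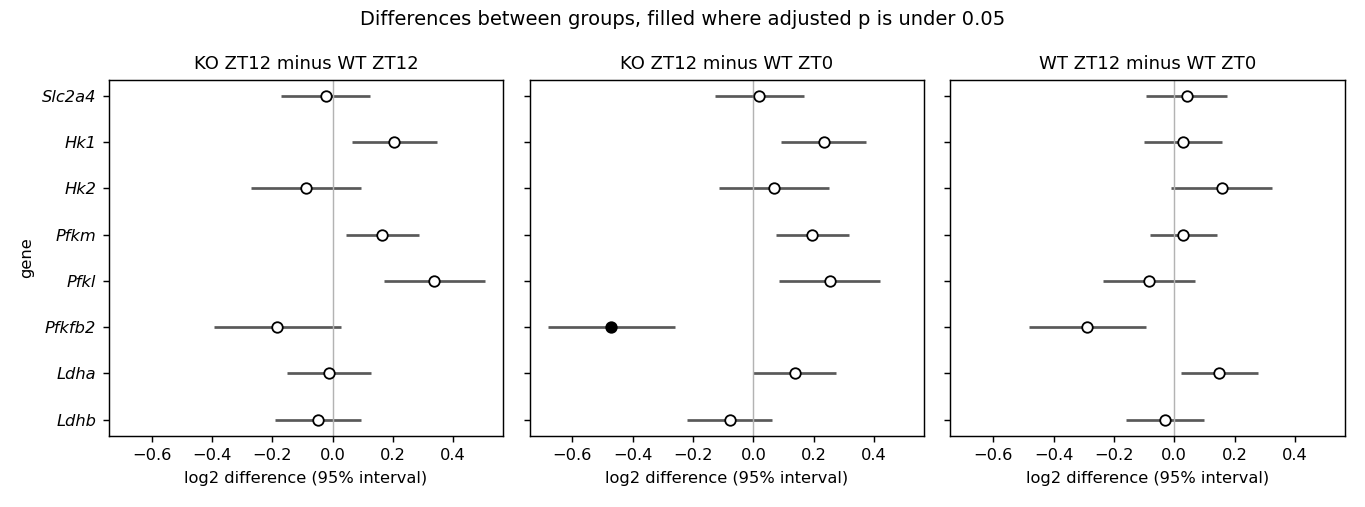
Log2 difference between groups for each of the 8 genes, with its 95% interval from limma, in the 3 comparisons. The filled point, Pfkfb2 in KO ZT12 minus WT ZT0, is the member that passed, and Pfkl, Pfkm and Hk1 lie to the right of 0 in both comparisons with the knockout.

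Between the times of day in wild-type hearts none of the 8 members passed (0 higher, 0 lower, limma), where 1.13% of all genes did, 0.645% higher and 0.482% lower. The groups overlapped for all 8, while 0.902% of all genes had none, 0.528% higher and 0.374% lower. At an unadjusted p under 0.05 there were 2, Pfkfb2 and Ldha, and 11.5% of all genes. Pfkfb2 read 6.42, 6.85 and 7.05 (lowest, median, highest) in WT ZT12 hearts, against 6.88, 7.06 and 7.38 in WT ZT0 hearts. The groups overlapped, and the log2 difference was -0.29 (SE 0.093; 1.22-fold lower; adjusted p = 0.172). The 3 group means of Pfkfb2 thus ran from 6.61 in KO ZT12 hearts through 6.79 in WT ZT12 hearts to 7.08 in WT ZT0 hearts, and neither pair of neighbours differed past the threshold. Ldha read 5.17, 5.23 and 5.38 (lowest, median, highest) in WT ZT12 hearts, against 4.99, 5.11 and 5.30 in WT ZT0 hearts, with a log2 difference of 0.15 (SE 0.061; adjusted p = 0.337). Hk2 differed by 0.16 (SE 0.080; adjusted p = 0.470). Differences of Slc2a4 (0.041), Hk1 (0.028), Pfkm (0.030), Pfkl (-0.084) and Ldhb (-0.031) were smaller than their group SDs.

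Related enzymes were also compared within each heart, as the log2 difference of their probe sets, whose change between groups shows whether they moved unequally. The absolute size of such a difference has no meaning on arrays. Hk2 minus Hk1 was 1.83 ± 0.16 in KO ZT12 hearts (SD, n = 5) and 2.12 ± 0.11 in WT ZT12 hearts (SD, n = 7). It was lower in all 5 knockout hearts than in any WT ZT12 heart, a change of -0.29 (two-sided exact permutation test, p = 0.00253, the smallest it can give, adjusted p = 0.0227 over 9 tests). In WT ZT0 hearts Hk2 minus Hk1 was 1.99 ± 0.11 (SD, n = 7), between the other 2 means. From it KO ZT12 hearts differed by -0.16 (exact permutation test, adjusted p = 0.123), with 2 of the 5 below all WT ZT0 hearts. WT ZT12 hearts differed from it by 0.13 (exact permutation test, adjusted p = 0.0997). Without the 4 hearts low in atrial markers the change between KO ZT12 and WT ZT12 hearts was -0.23. That leaves 2 knockout against 6 wild-type hearts, for which the smallest p of the exact permutation test is 0.0714, so no call was possible. Ldhb minus Ldha was 4.31 ± 0.073 in WT ZT12 hearts and 4.49 ± 0.12 in WT ZT0 hearts (SD, n = 7 each), a change of -0.18 (exact permutation test, p = 0.00583, adjusted p = 0.0262). Leaving out any 1 of WT ZT0 replicates 1 to 4 or of WT ZT12 replicates 2, 3 and 7 ended that call (exact permutation test, adjusted p = 0.0524 for each), as did leaving out the 4 hearts low in atrial markers (0.0629). Ldhb minus Ldha changed by -0.22 between KO ZT12 and WT ZT0 hearts (exact permutation test, adjusted p = 0.0530), and passed without WT ZT0 replicate 7 (0.0130). The balance of Pfkl and Pfkm did not pass in any comparison (changes of 0.17, 0.058 and -0.11 for KO ZT12 minus WT ZT12, KO ZT12 minus WT ZT0 and WT ZT12 minus WT ZT0; exact permutation test, adjusted p 0.239 to 0.558).

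**Figure D3:**
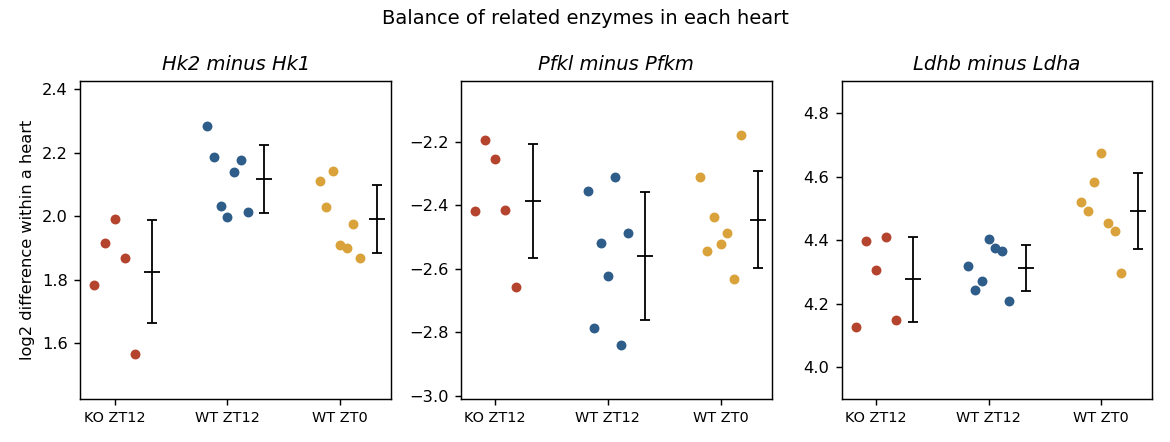
Log2 difference of the probe sets of related enzymes within each heart (points), with group mean and SD (bar). Hk2 minus Hk1 was lower in all 5 KO ZT12 hearts than in any WT ZT12 heart, and Ldhb minus Ldha was lower on average at ZT12 than at ZT0 in wild-type hearts.

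Within groups the pooled SD of the members lay between 0.067 (Pfkm) and 0.18 (Pfkfb2), and the median over all genes was 0.18. The members were also brighter than most genes, at percentiles 69.8 to 99 of mean intensity, and the spread was not compared at matched intensity. After group means were removed, Pfkl and Pfkm ran opposite to each other across the 19 hearts (Pearson r = -0.677, permutation p = 0.00327; Spearman rho = -0.693, permutation p = 0.00288; r = -0.559 without the 2 hearts farthest from the median of Pfkm). Over the 28 pairs of members this did not pass (adjusted permutation p = 0.0916 and 0.0806), and neither did any other pair. Of all genes, those whose values over the 19 hearts were most like Pfkfb2 were Ppp1r3c (Pearson r = 0.856), Snora23 (0.816) and Myo1e (0.805), a likeness that includes the differences between groups. With group means removed these were 0.663, 0.665 and 0.606.

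The genes that steer glucose uptake, glycogen and glycolysis around the members were followed in lists of 86 genes, of which 79 were measured. Between KO ZT12 and WT ZT12 hearts 2 rose, 2 fell and 75 did not pass. Between KO ZT12 and WT ZT0 hearts 3 rose, 4 fell and 72 did not pass, and between WT ZT12 and WT ZT0 hearts 4 rose, 4 fell and 71 did not pass. The shares of all genes called in these comparisons were 0.730%, 1.34% and 1.13%. The median log2 differences were 0.017, 0.0052 and 0.0039 in the same order of comparisons, with -0.00305, -0.0076 and -0.0035 for all genes. Without the 4 hearts low in atrial markers the counts of called genes were 0, 3 and 5. Over all genes the counts fell as well, from 162, 298 and 250 to 19, 84 and 211. That setting leaves 2 knockout hearts.

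Insulin signalling held several of these changes. Pik3r1, the regulatory subunit of PI3K, read 9.02, 8.83, 9.22, 9.10 and 9.08 in KO ZT12 hearts, against 8.57, 8.61 and 8.75 (lowest, median, highest) in WT ZT12 hearts and 8.17, 8.20 and 8.38 in WT ZT0 hearts. The 3 groups did not overlap. It was 1.32-fold higher in the knockout than in the wild type at ZT12 (log2 difference 0.41, SE 0.071; adjusted p = 0.00610) and 1.31-fold higher at ZT12 than at ZT0 in the wild type (log2 difference 0.39, SE 0.064; adjusted p = 0.00193). The genotype call was kept without any single heart, but lost without the 4 hearts low in atrial markers (adjusted p = 0.0837), where the log2 difference was 0.47.

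Tbc1d4, which encodes the protein that holds GLUT4 inside the cell until insulin signals, fell at ZT12 in the wild type and stood higher in the knockout. It averaged 7.65 ± 0.074 in KO ZT12 hearts (SD, n = 5), 7.36 ± 0.12 in WT ZT12 hearts and 7.65 ± 0.084 in WT ZT0 hearts (SD, n = 7 each). All 5 knockout hearts lay above all WT ZT12 hearts (log2 difference 0.29, SE 0.068; adjusted p = 0.0483), and all WT ZT12 hearts below all WT ZT0 hearts (log2 difference -0.29, SE 0.063; adjusted p = 0.0227). The genotype call was lost on leaving out any of the compared hearts except WT ZT12 replicate 1 (adjusted p 0.0553 to 0.129), and the time call on leaving out replicate 2 of WT ZT0 or replicates 3 or 4 of WT ZT12 (0.0502 to 0.0554). Both were lost without the 4 hearts low in atrial markers, at log2 differences of 0.21 and -0.26.

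Irs1, which docks the insulin receptor to PI3K, fell 1.57-fold at ZT12 in the wild type (log2 difference -0.65, SE 0.12; adjusted p = 0.00789). Its difference of 0.49 between the genotypes did not pass (SE 0.14; adjusted p = 0.112). Akt1, a kinase downstream of PI3K, fell in KO ZT12 hearts relative to WT ZT0 hearts (log2 difference -0.33, SE 0.075; adjusted p = 0.0254). The call did not survive leaving out replicate 3 or 6 of WT ZT0 or replicate 2, 4 or 5 of KO ZT12 (adjusted p 0.0534 to 0.0923), nor leaving out the 4 hearts low in atrial markers, where the difference was -0.20. Of the 20 measured genes of insulin and AMPK control, 2 rose and 0 fell between the genotypes at ZT12, and 1 rose and 2 fell between the times of day. The shares of all genes called were 0.730% and 1.13%.

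Of the glycogen genes, 1 passed between the genotypes at ZT12. Ugp2, which makes the UDP-glucose that glycogen is built from, read 9.20, 9.24, 9.25, 9.09 and 9.04 in KO ZT12 hearts, against 9.45, 9.65 and 10.12 (lowest, median, highest) in WT ZT12 hearts and 9.46, 9.70 and 10.03 in WT ZT0 hearts. All 5 knockout hearts lay below every wild-type heart, and Ugp2 was 1.48-fold lower than in WT ZT12 hearts (log2 difference -0.56, SE 0.11; adjusted p = 0.0124) and 1.46-fold lower than in WT ZT0 hearts (adjusted p = 0.00914). Without the 4 hearts low in atrial markers the differences were -0.43 and -0.48 and did not pass (adjusted p = 0.333 and 0.175). Ppp1r3c, a subunit that brings protein phosphatase to glycogen, fell 1.41-fold at ZT12 in the wild type (log2 difference -0.50, SE 0.072; adjusted p = 0.000392). Ppp1r3a, the muscle subunit of the same kind, rose (log2 difference 0.31, SE 0.073; adjusted p = 0.0375). Leaving out hearts 1 at a time ended this call for 10 of the 14 (adjusted p 0.0509 to 0.0881), all but WT ZT0 replicates 1, 2 and 7 and WT ZT12 replicate 4. The Ppp1r3a call was also lost with only the compared groups fitted (adjusted p = 0.0615) and with the replicate block (0.0906). It was lost as well with the atrial covariate (0.0690) and without the 4 hearts low in atrial markers (0.0817, at a log2 difference of 0.31). Between the genotypes at ZT12 neither gene passed (log2 differences -0.14 for Ppp1r3c and 0.10 for Ppp1r3a). Of 17 measured glycogen genes, 0 rose and 1 fell between the genotypes, and 1 rose and 1 fell between the times of day. Of all genes, 0.730% and 1.13% were called in these comparisons.

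Among the relatives of the members, Pfkfb3, another enzyme of the Pfkfb family, rose at ZT12 in the wild type (log2 difference 0.56, SE 0.13; adjusted p = 0.0398). It averaged 5.20 ± 0.36 in WT ZT12 hearts and 4.64 ± 0.20 in WT ZT0 hearts (SD, n = 7 each), without overlap, and Pfkfb2 differed the other way in the same hearts without passing. Leaving out any 1 of 9 hearts ended the Pfkfb3 call (adjusted p 0.0542 to 0.0932). Of these hearts, 5 were from WT ZT0 (all but replicates 3 and 7) and 4 from WT ZT12 (replicates 1, 2, 4 and 7). The Pfkfb3 call was also lost with only the compared groups fitted (adjusted p = 0.0665). Without the 4 hearts low in atrial markers it was lost too (0.0552, at a log2 difference of 0.60). Klf15, a factor known to raise Slc2a4 transcription, rose at ZT12 in the wild type (log2 difference 0.46, SE 0.099; adjusted p = 0.0185), while Slc2a4 itself differed by 0.041. Klf15 differed by 0.17 between the genotypes at ZT12 (adjusted p = 0.629). Thra, the thyroid hormone receptor gene whose end overlaps Nr1d1 on the other strand, fell in the knockout (log2 difference -0.37; adjusted p = 0.0401) and at ZT12 in the wild type (-0.35; adjusted p = 0.0227). The Thra call between the genotypes was lost without 10 of the 12 compared hearts left out 1 at a time (adjusted p 0.0506 to 0.120), those kept being WT ZT12 replicate 5 and KO ZT12 replicate 2. It was also lost with the atrial covariate (0.106) and without the 4 hearts low in atrial markers (0.216). Between the times it ended with the covariate (0.0673) and without replicate 2 or 4 of WT ZT0 or replicate 3 of WT ZT12 (0.0502 to 0.0543).

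The remaining lists had no call in any comparison by limma. Of all genes, 10.6% had an unadjusted p under 0.05 between the genotypes at ZT12 and 11.5% between the times of day. Between KO ZT12 and WT ZT0 hearts that share was 12.6%. Of 4 other glucose transporters, Slc2a1, the basal transporter GLUT1, differed by -0.26 between KO ZT12 and WT ZT12 hearts (SE 0.085; adjusted p = 0.213) and by 0.21 between WT ZT12 and WT ZT0 hearts (adjusted p = 0.258), and Slc2a3 by -0.20 and 0.30 (adjusted p = 0.622 and 0.307). At an unadjusted p under 0.05 this list had 2 genes in each of these comparisons, Slc2a1 and Slc2a8 between the genotypes (Slc2a8 at -0.22) and Slc2a1 and Slc2a3 between the times. Of 2 hexokinase relatives, Hk3 and Hkdc1 differed by -0.13 and 0.070 between the genotypes at ZT12, with 0 at an unadjusted p under 0.05 there and 0 between the times of day. In KO ZT12 against WT ZT0 hearts there was 1, Hk3 (log2 difference -0.26, SE 0.080; adjusted p = 0.135). Of 10 later enzymes of glycolysis, Eno2 differed by -0.20 between the times of day and Pgam1 by 0.15 between the genotypes, with 0 genes at an unadjusted p under 0.05 between the genotypes and 1 between the times. In KO ZT12 against WT ZT0 hearts there was 1, Eno2 (log2 difference -0.25, SE 0.084; adjusted p = 0.172). Of 6 genes of lactate handling, Slc16a1, a lactate transporter, differed by -0.16 between the genotypes (SE 0.065) and Ldhc by -0.13 between the times. This list had 1 gene at an unadjusted p under 0.05 between the genotypes and 0 between the times. Some of these probe sets were dim, near or below the median of all values (3.27). Group means were 2.82 to 3.12 for Slc2a3 and 3.19 to 3.45 for Hk3. They were 2.91 to 2.98 for Hkdc1 and 2.29 to 2.42 for Ldhc.

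**Figure D4:**
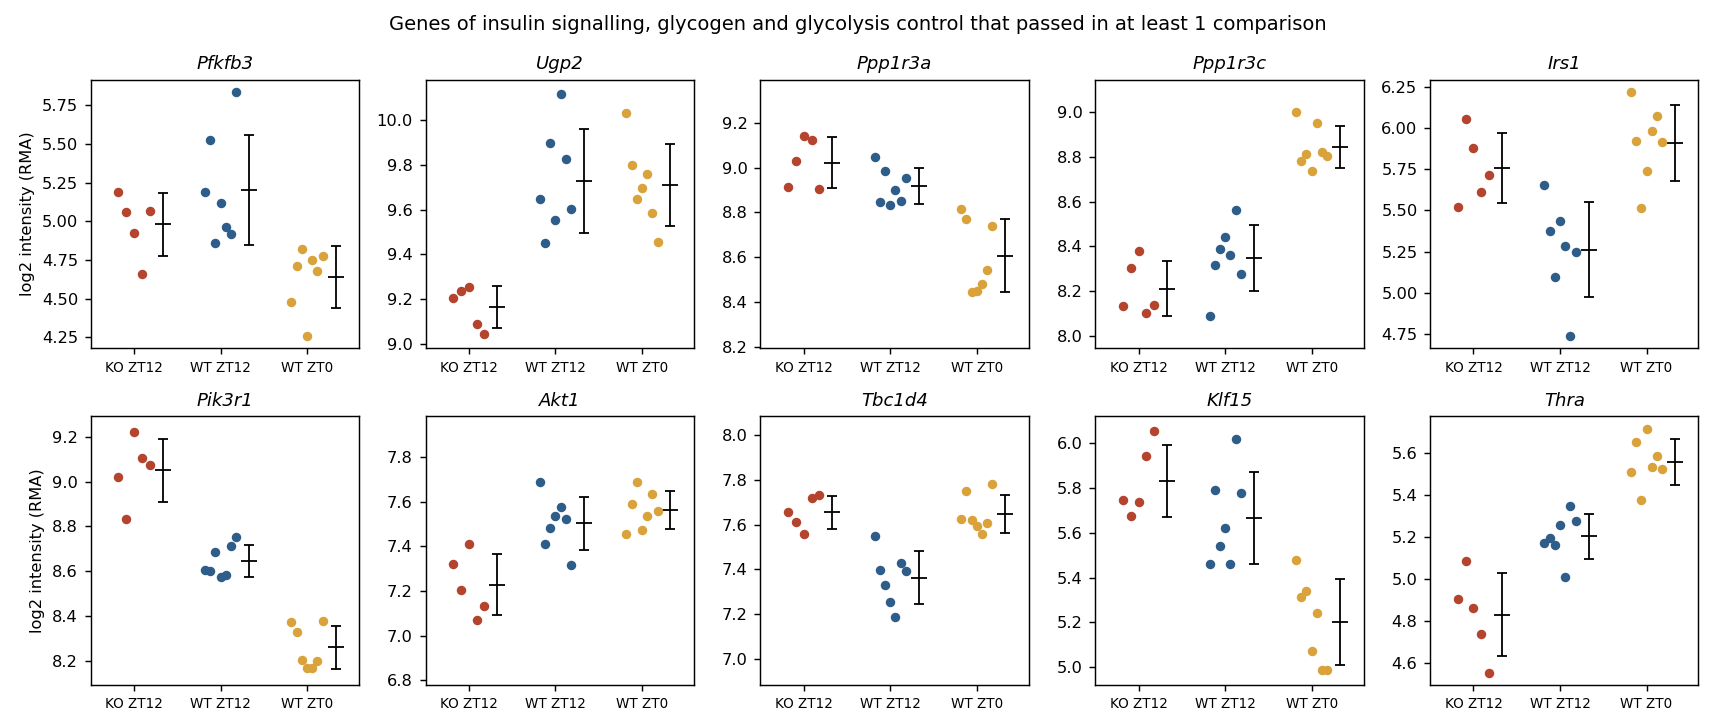
Log2 intensity in each heart (points), with group mean and SD (bar), of the 10 genes of the surrounding pathways that passed in at least 1 comparison. Pik3r1 differed between all 3 groups without overlap, Ugp2 was lower in all 5 KO ZT12 hearts than in any wild-type heart, and Tbc1d4 was lower in all WT ZT12 hearts than in the hearts of the other groups.

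Of the 4 hearts low in atrial markers 3 were knockout hearts, so the members were read beside these markers. Between KO ZT12 and WT ZT12 hearts the 10 atrial markers had a median log2 difference of -0.71. By limma 0 of them passed and 0 had an unadjusted p under 0.05. In the 2 knockout hearts with an atrial marker mean above 7, replicates 1 and 3, Pfkl was at 7.03 and 7.12, Pfkm at 9.45 and 9.37, Hk1 at 6.38 and 6.35 and Pfkfb2 at 6.60 and 6.65. Pfkl and Pfkm in these hearts lay above all WT ZT12 hearts, as they did in the 3 knockout hearts low in atrial markers. That follows from the lack of overlap between the groups and does not test the part of atrial content. WT ZT12 replicate 5, also low in these markers, had the highest Pfkl of the WT ZT12 hearts (6.89). In the knockout hearts low in them, replicates 2, 4 and 5, Pfkl was at 7.19, 6.98 and 6.90. The first was the highest of the KO ZT12 hearts, and replicates 4 and 5 were the lowest. Without the 4 hearts low in these markers the differences between KO ZT12 and WT ZT12 hearts were 0.40 for Pfkl, 0.14 for Pfkm and 0.17 for Hk1, none of which passed. Other tissues were read in the same way. Of 7 adipocyte markers, 1 rose in the knockout, Plin4, a lipid droplet gene that muscle also carries (log2 difference 0.46; adjusted p = 0.0223), and the list mean was 4.03 to 6.35 in KO ZT12 hearts and 3.86 to 6.16 in WT ZT12 hearts. Of 9 skeletal muscle markers, 1 fell, Acta1, which the heart expresses too (log2 difference -1.76; adjusted p = 0.0242). The list mean was 3.99 to 4.39 in KO ZT12 hearts and 4.31 to 4.69 in WT ZT12 hearts. Between KO ZT12 and WT ZT0 hearts, where Pfkfb2 passed, 9 of 10 atrial markers had an unadjusted p under 0.05, of which 8 were lower in the knockout and Gpr22 was higher (log2 difference 0.45; adjusted p = 0.0460). In that comparison Plin4 rose (0.59; adjusted p = 0.00121) and Acta1 (-1.47; adjusted p = 0.0458) and Myl1 (-0.83; adjusted p = 0.0394) of the skeletal muscle list fell. Of 5 macrophage markers 3 had an unadjusted p under 0.05 and 0 passed, and 12.6% of all genes were past the unadjusted bound. Log2 differences of the 5 ran from -0.56 to 0.28, so not all were lower in the knockout. Their list mean was 5.46 to 6.28 in KO ZT12 hearts and 6.03 to 6.42 in WT ZT0 hearts. Of 8 endothelial markers 1 fell at ZT12 in the wild type, Kdr, a receptor for VEGF (-0.52; adjusted p = 0.00160). The part of endothelial cells, macrophages and adipose or skeletal muscle tissue in the values of the members was not tested.

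**Figure D5:**
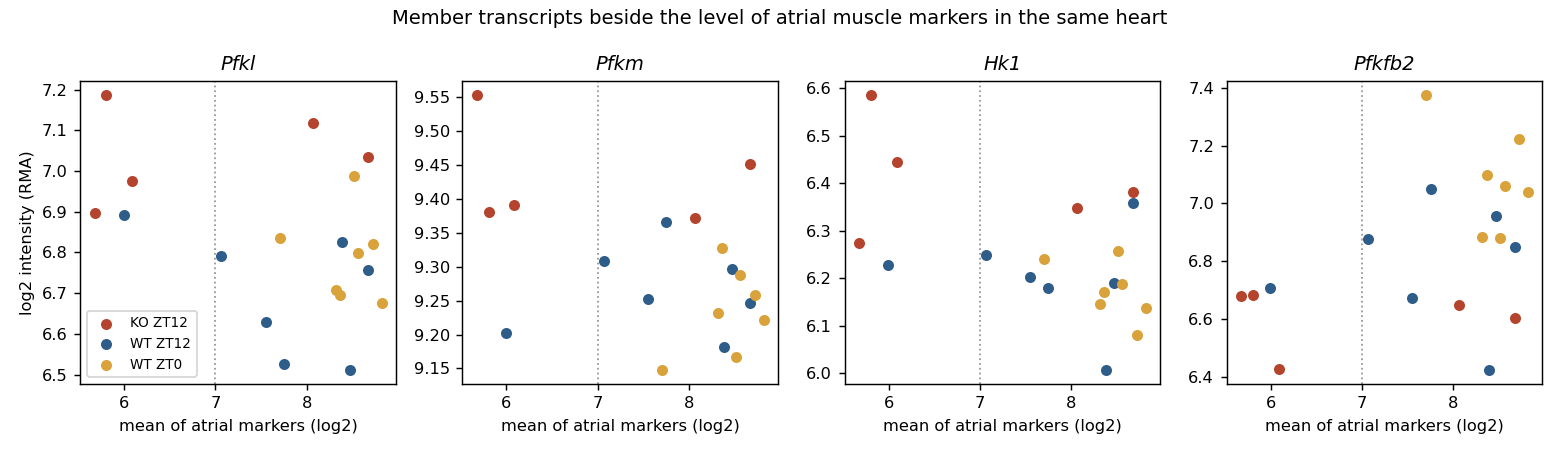
Log2 intensity of Pfkl, Pfkm, Hk1 and Pfkfb2 in each heart (vertical axes) against the mean log2 intensity of 10 atrial muscle markers in the same heart (horizontal axes), the dotted line marking a mean of 7. For Pfkl and Pfkm, the 2 KO ZT12 hearts right of that line and the 3 left of it lay above all WT ZT12 hearts.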

How the data were processed

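Transcripts were measured in 19 mouse hearts. The authors deposited log2 values of 41345 probe sets made with RMA, per the submitters' processing notes, which corrects background, normalizes quantiles and summarises probes. The log2 scale was read from the values (0.208 to 12.88), and no source used here gives the version of RMA or its probe annotation. Biotinylated DNA was made from 300 ng of RNA, per the labels' protocols. Names of probe sets came from the platform annotation, which can be old: 23521 list 1 gene, 1814 several and 16010 none, and the last 2 kinds were left out. Of the first, 23328 were found by Entrez identifier in the GRCm38.p6 gene table, with 0 symbols changed.

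The 22180 genes, each by its brightest probe set, were fitted with limma 3.58.1 in R 4.3.3, with 1 mean per group over all 19 arrays and eBayes. Tests were two-sided, and a gene passed at an adjusted p under 0.05 (Benjamini-Hochberg over all genes). The number of arrays limits the precision. The labels call replicates biological and name no batch or date. No 2 arrays of a group were copies (SD of their difference at least 0.367). Enzyme pairs were compared with exact permutation tests in scipy 1.17.1, and correlations with 100000 permutations within groups. The limma fit was tried on simulated data, and the permutation tests were not.

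The members, lists, pairs and rules were chosen with earlier results of these data known. Named were all members, every called gene of the lists or otherwise the 2 with the smallest p per list, the 3 genes most like the called member, and Nr1d1. Markers named beside them were chosen after their values were seen. Alternatives covered the probe set rule, normalization, centring, dim probe sets, the variance model, the arrays in the fit, the replicate block, an atrial covariate and each heart left out. Leaving out the 4 hearts low in atrial markers, and every alternative for the list genes, were added after the data were seen. The labels do not say that replicate numbers pair hearts. Of 17 same-numbered pairs across groups, 0 had a correlation of deviations over 0.1, which cannot exclude a shared day.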

Additional observations from a re-analysis of the deposited data

Results flagged for a closer look

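Among the named genes, 81 sets of hearts (a gene in a group) were searched for a heart far from the rest of its group, and chance gives about 1 in 20. There was 1, and 0 of the 24 sets of the members. Hkdc1, a hexokinase relative, read 3.41 in WT ZT12 replicate 6, with the nearest other heart of that group at 2.97. This probe set is dim, the median of all values being 3.27.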

How the results depend on the processing

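Members kept their direction and their side of the threshold in 495 of 520 alternatives. In 4 a call was lost, in 6 one was gained and in 15 an uncalled difference changed sign. The cause was not tested. Between KO ZT12 and WT ZT12 hearts, 162 genes passed in all, 264 with dim probe sets left out, 270 with a variance trend, 72 with only the compared groups fitted, 88 with the replicate block, 19 without the 4 hearts low in atrial markers and 94 to 161 without single hearts. Members called were 0, 1 with dim probe sets left out or the trend (Pfkl, adjusted p = 0.0250 and 0.0172), and 0 to 1 without single hearts. Pathway genes called were 4, 6 with dim probe sets left out or the trend (Akt1 among those gained, adjusted p = 0.0467 and 0.0323), 5 with probe sets averaged (Irs1 gained, 0.0439), 3 with quantile normalization repeated, 2 with centring, only the compared groups, the replicate block or the atrial covariate, 0 without the 4 hearts, and 2 to 3 without single hearts. Between KO ZT12 and WT ZT0 hearts, 298 genes passed, 460 with dim probe sets left out, 187 with only the compared groups, 182 with the replicate block, 167 with the covariate, 84 without the 4 hearts and 171 to 311 without single hearts. Members called were 1, 3 with dim probe sets left out (Hk1 and Pfkm added, adjusted p = 0.0453 each), 2 with the trend (Pfkm added, 0.0168), 0 with the replicate block (Pfkfb2, 0.0645), 0 with the covariate or without the 4 hearts, and 0 to 1 without single hearts. Pathway genes called were 7, 8 with dim probe sets left out or the trend, and 3 without the 4 hearts. Between WT ZT12 and WT ZT0 hearts, 250 genes passed, and 384 with dim probe sets left out. Pathway genes called were 8, then 5 with only the compared groups, the replicate block, the covariate or without the 4 hearts, and 5 to 8 without single hearts. No label ties a replicate number to a shared day, and whether hearts of the same number share one is unknown. The block therefore shows how counts move if they do. Without the 4 hearts, a setting chosen after seeing the data that leaves 2 knockout hearts and so no possible call for the balances in them, the balance Hk2 minus Hk1 changed by -0.23 (KO ZT12 minus WT ZT12; its loss was fixed by the number of hearts) and Ldhb minus Ldha by -0.19 (WT ZT12 minus WT ZT0). Without single hearts, Ldhb minus Ldha changed by -0.21 to -0.15 (WT ZT12 minus WT ZT0), by -0.25 to -0.18 (KO ZT12 minus WT ZT0) and by -0.068 to 0.0024 (KO ZT12 minus WT ZT12). Signs turned for these uncalled log2 differences. For KO ZT12 minus WT ZT12, Ldha was 0.0031 with the replicate block, 0.012 with the covariate and 0.047 without the 4 hearts, and Ldhc was -0.046 with the covariate and -0.036 without the 4 hearts. Without single hearts, Ldha ran from -0.037 to 0.015, Ldhc from -0.026 to 0.073, Slc2a4 from -0.060 to 0.015, Hk2 from -0.16 to 0.010 and Ldhb from -0.094 to 0.0089. For KO ZT12 minus WT ZT0, Pgam1 was 0.0054 with probe sets averaged, 0.0091 with centring, 0.12 with the covariate and 0.21 without the 4 hearts. Tbc1d4 was -0.028 with quantile normalization repeated and -0.042 without the 4 hearts, and Slc2a4 was -0.047 with the covariate and -0.094 without the 4 hearts. Without single hearts, Pgam1 ran from -0.073 to 0.046, Tbc1d4 from -0.013 to 0.031, Slc2a4 from -0.019 to 0.056, Hkdc1 from -0.060 to 0.084 and Slc2a1 from -0.080 to 0.014. For WT ZT12 minus WT ZT0, Ugp2 was -0.037 with the covariate and -0.048 without the 4 hearts, and ran from -0.048 to 0.071 without single hearts. The balance of Pfkfb2 and Pfkfb1 could not be computed, since Pfkfb1 had no values. Array signals limit small differences, and probe sets near background understate folds.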

Other observations

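The probe set that lists Aldoa together with Aldoart1 read 4.91 ± 0.18 in KO ZT12 hearts (SD, n = 5), 4.95 ± 0.21 in WT ZT12 hearts and 5.08 ± 0.14 in WT ZT0 hearts (SD, n = 7 each), and which gene it reads cannot be told. The probe set that lists Hk1os together with Hk1 read 3.10 ± 0.16, 3.28 ± 0.17 and 3.17 ± 0.15 in the same groups, while the Hk1 probe set averaged 6.41, 6.20 and 6.17.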
